A study of Homo sapiens with 12 samples.

Results

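GSE1, PHF21B, PHF2, EHMT1, EZH2 and BCOR encode proteins that add or remove methyl marks on histones or act in the complexes around those enzymes, and NONO peaks lay on RNA of each of them. They are 6 of 1689 genes with any NONO peak, and were found by gene name in the authors' annotation of every peak. Together they held 927 of 26351 peaks. NONO binds RNA in the nucleus, where it is a core protein of paraspeckles, and eCLIP mapped it in the 22Rv1 line of human prostate cancer cells. In this assay UV light crosslinks proteins to RNA, the protein is immunoprecipitated, and its RNA is sequenced beside an input library. Cells grown for 40 h received 20 µM SKBG-1(R) in 0.04% DMSO, 20 µM SKBG-1(S) in 0.04% DMSO, or 0.04% DMSO alone, each for 4 h, and were crosslinked at 400 mJ. The names of the compounds mark them as stereoisomers of SKBG-1. The comparisons ask whether a compound changed the share of NONO peaks that lay on a gene, and whether the stereoisomers differed.

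Histone tails carry methyl groups that some enzymes write and others erase, and corepressor complexes bring these enzymes to genes. GSE1 is a subunit of complexes that hold the demethylase KDM1A (LSD1) and histone deacetylases, and PHF21B is related to PHF21A, a histone reader of the KDM1A complex. PHF2 is a JmjC-domain demethylase of H3K9. EHMT1 (GLP) methylates H3K9 together with EHMT2 (G9a), and EZH2 is the catalytic subunit of the Polycomb complex PRC2, which methylates H3K27 and is often abundant in advanced prostate cancer. BCOR is a corepressor of BCL6 and a subunit of a variant Polycomb complex.

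Each treatment had 2 peak lists, 1 per replicate, and each list was called by the authors for an immunoprecipitation against its own input, so that 12 libraries gave 6 lists. They held 669 to 14847 peaks, and the replicate 2 list was the longer in every treatment. Where a pair of values is given for a treatment, replicate 1 comes first. The files hold no read counts, so depth is unknown, and a list without a peak on a gene says nothing firm about binding there. Nothing in the labels says that the replicates came from separate cultures, so each p-value reflects the spread among these lists alone, which may be technical. In bulk cells, less NONO on a transcript, less of that transcript and fewer cells that make it cannot be told apart. Of 15 luminal prostate markers 4 held a peak, and 0 of 19 markers of other cell types did. SPDEF, a luminal transcription factor, held 2 and 29 peaks in the SKBG-1(R) lists, 4 and 12 in the SKBG-1(S) lists, and 1 and 7 in the DMSO lists. Its part in the results was not tested.

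Sequence could be read for 5 intronic windows under NONO peaks, shown because each held peaks of at least 3 lists. They run 5′ to 3′ on the strand of the gene, with capitals for bases inside a peak of at least 1 list. The peaks in a window need not share bases. In the EZH2 window no base was in peaks of more than 2 lists, and in the others none was in more than 3. The EZH2 window is chr7:148883527-148883735 on the minus strand, just upstream of an alternative exon, with peaks from both SKBG-1(S) lists and from DMSO replicate 2. The GSE1 window is chr16:85613072-85613156 on the plus strand, directly upstream of the first exon of GSE1-204, with peaks from the 3 replicate 2 lists. The EHMT1 window is chr9:137619060-137619145 on the plus strand, in the first intron, with peaks from the 3 replicate 1 lists. The PHF21B windows lie in its first intron on the minus strand. Window 1, chr22:45008450-45008534, held peaks of SKBG-1(R) replicate 2 and of both DMSO lists. Window 2, chr22:45008167-45008383, held peaks of every list but SKBG-1(R) replicate 1. The first 3 sequences are from RefSeq promoter windows (GRCh38.p14) and those of PHF21B from a GENCODE 29 transcript that retains the intron.
EZH2: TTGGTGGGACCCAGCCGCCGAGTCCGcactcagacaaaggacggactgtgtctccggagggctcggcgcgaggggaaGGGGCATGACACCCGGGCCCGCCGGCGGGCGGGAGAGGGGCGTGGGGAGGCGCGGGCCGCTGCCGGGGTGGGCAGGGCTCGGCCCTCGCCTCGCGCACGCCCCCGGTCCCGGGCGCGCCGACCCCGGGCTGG
GSE1: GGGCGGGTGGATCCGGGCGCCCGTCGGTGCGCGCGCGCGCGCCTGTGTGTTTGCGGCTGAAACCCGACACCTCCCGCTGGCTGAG
EHMT1: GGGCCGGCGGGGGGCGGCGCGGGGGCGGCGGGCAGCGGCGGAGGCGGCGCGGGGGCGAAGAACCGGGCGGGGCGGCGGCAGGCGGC
PHF21B window 1: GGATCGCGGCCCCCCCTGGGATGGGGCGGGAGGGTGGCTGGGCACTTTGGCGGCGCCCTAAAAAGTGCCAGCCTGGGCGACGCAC
PHF21B window 2: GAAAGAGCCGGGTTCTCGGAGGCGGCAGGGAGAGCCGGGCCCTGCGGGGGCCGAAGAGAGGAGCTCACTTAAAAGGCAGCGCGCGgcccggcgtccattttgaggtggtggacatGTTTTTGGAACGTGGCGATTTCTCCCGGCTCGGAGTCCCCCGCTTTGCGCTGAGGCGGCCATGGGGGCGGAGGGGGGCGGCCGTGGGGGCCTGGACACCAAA

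These windows were rich in G and C, which made up 79.4% of the EZH2 window, 75.3% of the GSE1 window, 91.9% of the EHMT1 window, and 72.9% and 68.2% of PHF21B windows 1 and 2. RefSeq promoter windows of all genes, cut to the same lengths from their 5′ end, had medians of 54.7 to 57.6%. These cut windows were not matched to the 5 windows in their position relative to a start. Their values, for the motifs too, are therefore set beside those of the 5 windows without a conclusion. Runs of GGGG were present in 4 of the 5 windows, the exception being GSE1, and GGAGG was present in the same 4. Among the promoter windows, 36.1 to 65.9% held GGGG and 19.0 to 43.7% held GGAGG, depending on the length. GTAAG and GTGAG, letters like those of a 5′ splice site, were in 0 of the 5 windows. They were in 4.27 to 9.61% and 8.84 to 21.1% of the promoter windows. Only the sense strand was searched, since the peaks are on RNA, and GGGG and GGAGG may overlap each other.

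The peaks of the 6 genes lay mostly in long first introns. Of their 905 intronic peaks 860 were in the first intron of at least 1 coding transcript, against 77.9% of the 18916 intronic peaks of all other genes. Intron more than 500 nt from a splice site, a class given by the authors, held 82.2% of the 927 peaks, against 57.3% of the peaks of all other genes. The distal share moved with the list. It was 58.8 and 86.9% in the SKBG-1(R) lists, 44.1 and 82.5% in the SKBG-1(S) lists, and 52.4 and 81.1% in the DMSO lists, low in replicate 1 and high in replicate 2. For all other genes it was lower in each of these lists, at 39.3% in SKBG-1(R) replicate 1, 50.3% in SKBG-1(S) replicate 2 and 58.8% in DMSO replicate 2, for example. The distal share also differed by gene, at 90.9% in PHF21B, 87.7% in BCOR, 87.6% in GSE1 and 70.0% in PHF2. EHMT1 had 56.5%, near the 57.3% of all other genes, and its first-intron share of 80.2% was near their 77.9%. EZH2 had 0 distal peaks. Of the 927 peaks, intron within 500 nt of a splice site held 15.4%, against 22.2% in all other genes, though 37.0% in EHMT1. 5′ UTRs held 1.51%, against 5.22%. Peaks of a gene or a list are not independent, so these shares are given without a test.

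GSE1 (ENSG00000131149, chromosome 16 from 85169525 to 85676204, GRCh38) held 498 peaks, rank 3 among all genes. Apart from 1 peak at 51859 nt from the start of the gene, they lay between 385449 and 484527 nt. The nearest upstream start was that of the internal transcript GSE1-202 for 295 peaks and that of GSE1-215 for 168. A noncoding RNA on the opposite strand, AC092127.2, overlapped 26 of the peaks, which carry the strand of GSE1. PHF21B (ENSG00000056487, chromosome 22 from 44881162 to 45009999) held 88 peaks, all in its first intron and 80 of them within 20 kb of the start of PHF21B-205. PHF2 (ENSG00000197724, chromosome 9 from 93576407 to 93679587) held 50 peaks, 48 of them in its first intron, and SKBG-1(R) replicate 2 alone supplied 84.0% of the 50.

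EHMT1 (ENSG00000181090, chromosome 9 from 137618963 to 137870016) held 108 peaks, which were spread over more of the gene. Of its intronic peaks 80.2% were in a first intron, and 55 of the 108 peaks lay within 2 kb of an annotated start. AL590627.2, a noncoding transcript on the same strand, overlapped 72 of the 108, and reads from the overlapping transcripts cannot be told apart there. EZH2 (ENSG00000106462, chromosome 7 from 148807383 to 148884321) held 12 peaks, every one between 324 and 902 nt from the start of the gene. BCOR (ENSG00000183337, chromosome X from 40049815 to 40177329) held 171 peaks, all classed as intronic. The start at 40097403, shared by transcripts BCOR-202 and BCOR-205, lay within 20 kb upstream of 146 of them, in all 6 lists. Per 100 kb of gene length BCOR held 134.1 peaks, GSE1 98.3, PHF21B 68.3, PHF2 48.5, EHMT1 43.0 and EZH2 15.6 over all lists, an order that the longest list sways. In DMSO replicate 2 alone BCOR held 36.9 per 100 kb, PHF21B 22.5, GSE1 16.8, EHMT1 13.9, EZH2 3.90 and PHF2 1.94, so that PHF2 came last.

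**Figure D1:**
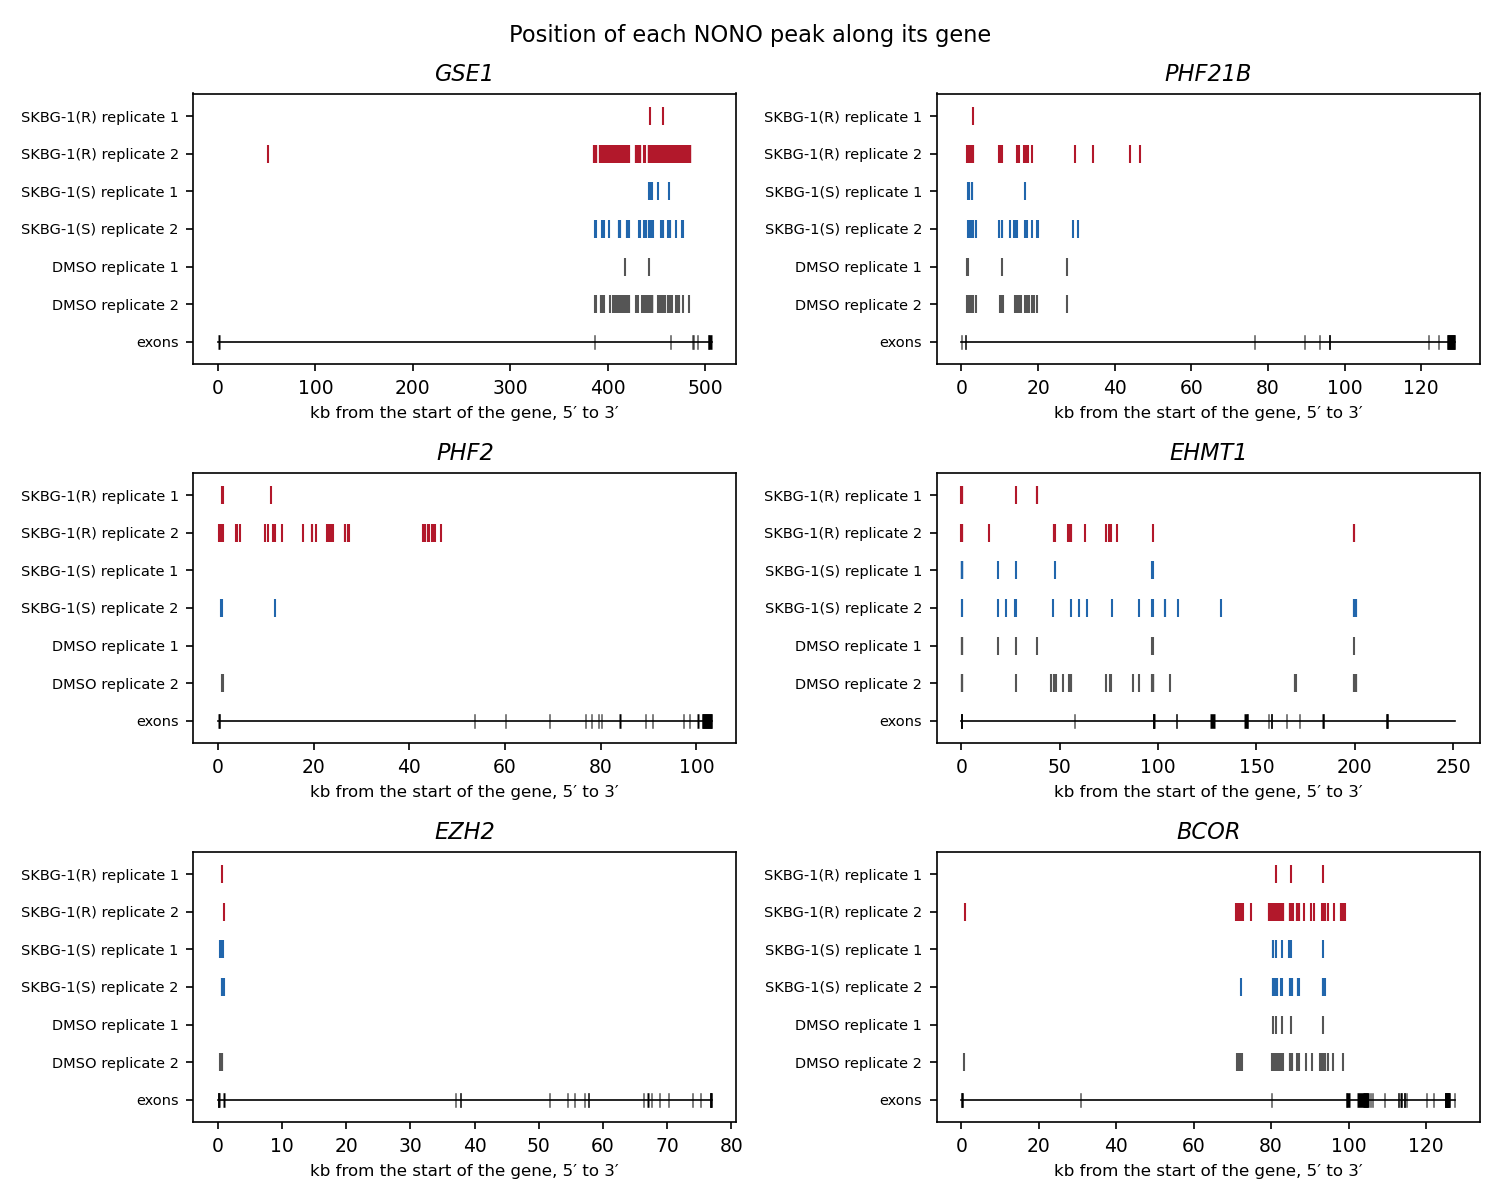
Each tick is a NONO peak, placed by its distance in kb from the start of the gene, with 1 line per peak list and the exons of coding transcripts below. BCOR peaks gather around 80 kb in all 6 lists, GSE1 peaks lie beyond 385 kb but for 1, and the 12 EZH2 peaks are at the start of the gene.

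Peaks that overlapped by at least 1 nt were merged into regions, of which the 6 genes had 565. All 6 lists shared 3 of these, all in BCOR, and 413 were in a single list. Over all genes 101 of 16419 regions were in all 6 lists. Regions in at least 3 lists were 16 of 67 in BCOR, 11 of 46 in PHF21B, 9 of 61 in EHMT1, 1 of 6 in EZH2, 25 of 344 in GSE1 and 1 of 41 in PHF2. PHF2 (2.44%) and GSE1 (7.27%) thus had the smallest shares of the 6 genes. The share was 11.2% for the 6 genes together and 9.45% over all genes, so that GSE1 was near the share of all genes. Regions in a single list made up 73.1% for the 6 genes together and 76.8% over all genes. The longest list, SKBG-1(R) replicate 2, was the sole source of 36 of the 41 PHF2 regions and 250 of the 344 GSE1 regions.

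**Figure D2:**
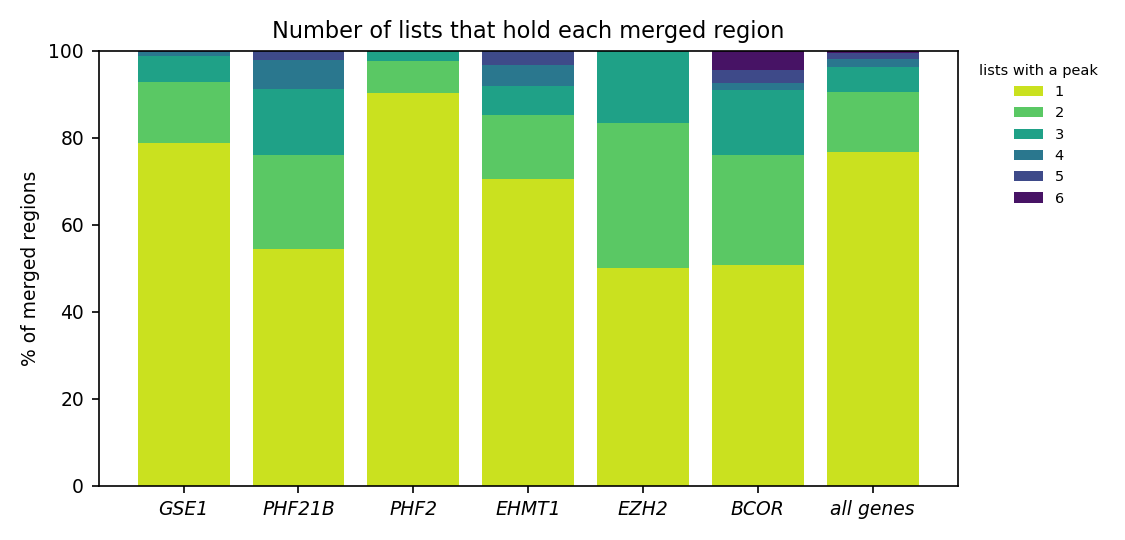
Bars show the percentage of merged regions of each gene, and of all genes, by the number of lists (1 to 6) that held a peak in the region. Only BCOR among the 6 genes has regions in all 6 lists. In 1 list are 90.2% of PHF2 regions and 78.8% of GSE1 regions, beside 76.8% of the regions of all genes.

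The recurrent regions had moderate enrichment over input. In the BCOR region at X:40092057-40092296 the authors' log2 enrichment was 4.26 and 4.18 in the SKBG-1(R) lists, 4.31 and 4.64 in the SKBG-1(S) lists and 4.13 and 4.25 in the DMSO lists. These 6 values lay between 4.13 and 4.64. At X:40096021-40096364 the values were 3.22 and 3.90 with SKBG-1(R), 4.67 and 3.97 with SKBG-1(S), and 3.46 and 3.99 with DMSO. The third region, X:40083652-40083916, had 3.80 and 4.58 with SKBG-1(R), 4.28 and 4.72 with SKBG-1(S), and 3.11 and 4.40 with DMSO. Enrichment depends on the libraries of each list, so these values describe the peaks and are not compared between treatments.

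Among the other genes, 4 regions were in 5 lists. EHMT1 had a region at 9:137716310-137716418, in intron about 97.4 kb into the gene, with 3.43 in SKBG-1(R) replicate 2, 4.02 and 6.08 with SKBG-1(S), and 4.93 and 4.83 with DMSO. It was absent from SKBG-1(R) replicate 1. A second EHMT1 region, 9:137619260-137619349 in the first intron, had 3.08 in SKBG-1(R) replicate 1, 3.97 and 4.24 with SKBG-1(S), and 3.39 and 3.33 with DMSO. The value of 3.08 stood close to the minimum of 3 that all deposited peaks meet, and SKBG-1(R) replicate 2 held no peak there. Another, 9:137818707-137818818, was in 4 lists, with 3.55 to 3.72.

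PHF21B had a region at 22:45006986-45007133, with 3.63 and 4.80 in the SKBG-1(R) lists, 4.22 and 3.26 in the SKBG-1(S) lists and 3.95 in DMSO replicate 2. Its next regions, 22:44993389-44993589 and 22:44999451-44999514, were in 4 lists each and in only 1 SKBG-1(R) list. SKBG-1(R) replicate 1 held only 1 PHF21B peak, in the region at 22:45006986-45007133, so no other PHF21B region could be in both SKBG-1(R) lists. GSE1 had a region at 16:85612957-85613241, which holds the window printed above, with 4.22 and 4.85 with SKBG-1(R), 4.20 and 5.47 with SKBG-1(S), and 4.19 in DMSO replicate 2. Further GSE1 regions, 16:85614474-85614703 and 16:85613538-85613685, were in 4 lists. EZH2 had 1 region in 3 lists, 7:148883710-148883792, with 4.34 in SKBG-1(R) replicate 1, 3.17 in SKBG-1(S) replicate 2 and 4.54 in DMSO replicate 2. PHF2 had 1, 9:93577294-93577477, with 4.48 and 3.68 with SKBG-1(R) and 4.83 in DMSO replicate 2.

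**Figure D3:**
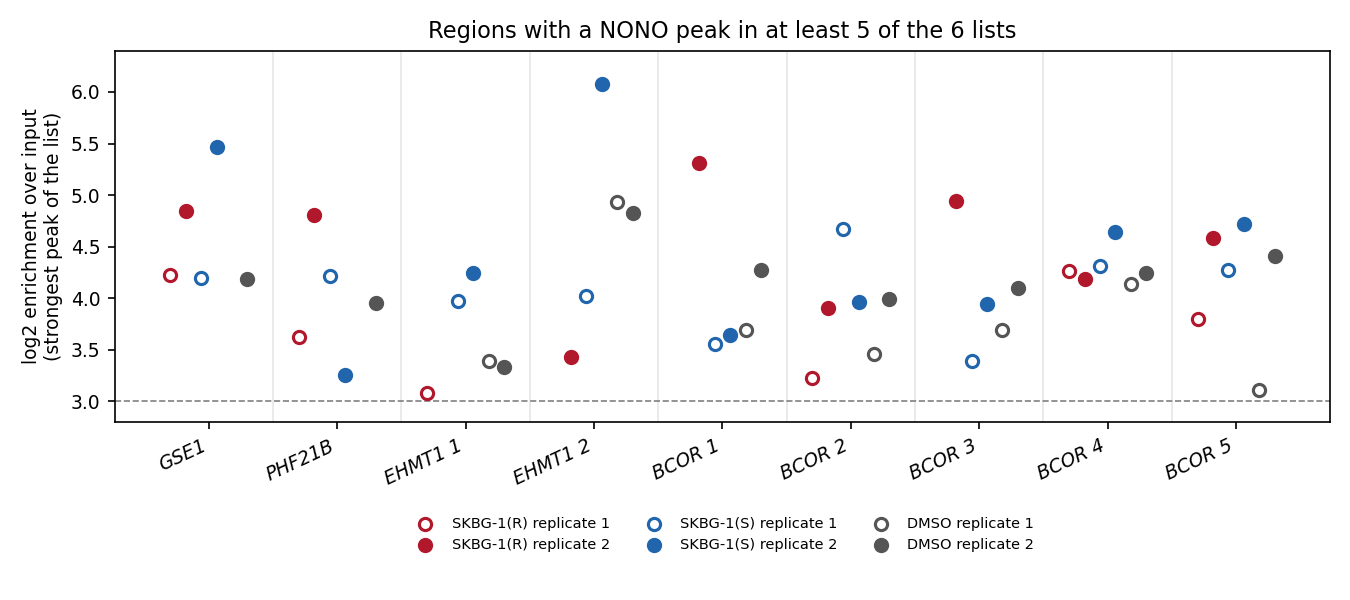
Points give the authors' log2 enrichment over input of the strongest peak of each list, for the 9 regions with a peak in at least 5 lists, numbered along each gene. Open points are replicate 1, filled points are replicate 2, and the dashed line is the minimum of 3. SKBG-1(R), SKBG-1(S) and DMSO each have 2 points in the 3 BCOR regions held by all lists, and the highest value is 6.08, in EHMT1.

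Replicates of a treatment shared part of the shorter list's peaks on these genes. With SKBG-1(R), 8 of 17 replicate 1 peaks overlapped a replicate 2 peak (47.1%, 95% Wilson interval 26.2 to 69.0). With SKBG-1(S) it was 18 of 34 (52.9%, 36.7 to 68.5), and with DMSO 11 of 21 (52.4%, 32.4 to 71.7). The intervals overlap, and like all intervals on shares here they cover counting error only. Over all genes the shares were 54.4% with SKBG-1(R), 54.3% with SKBG-1(S) and 33.2% with DMSO. Regions found in both lists of a treatment and in no other list numbered 1 for SKBG-1(R) and 0 for each of SKBG-1(S) and DMSO, and the 1 was a region of EHMT1 that the authors classed as coding, at 9:137618991-137619046.

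The first comparison is SKBG-1(R) against DMSO, on peaks of a gene per 10000 peaks of its list. EHMT1, PHF21B and BCOR took a smaller share of both SKBG-1(R) lists than of both DMSO lists. PHF2 took a larger one, while the lists of GSE1 and EZH2 overlapped. For EHMT1 the SKBG-1(R) lists had 7 and 22 peaks and the DMSO lists 10 and 35. Per 10000 peaks that was 35.8 and 14.8 with SKBG-1(R), against 149.5 and 95.2 with DMSO, or 25.3 ± 14.9 and 122.3 ± 38.4 (SD, n = 2 lists each). The 2 treatments did not overlap, and the gap was larger than the spread within either. The limma log2 fold change was −2.15 (SE 0.91, 95% interval −4.04 to −0.25), with an unadjusted p of 0.028 and an adjusted p of 0.993.

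PHF21B had 1 and 24 peaks in the SKBG-1(R) lists and 4 and 29 in the DMSO lists. Its share was 5.12 and 16.2 per 10000 with SKBG-1(R), against 59.8 and 78.8 with DMSO (10.6 ± 7.81 and 69.3 ± 13.5, SD, n = 2 lists each). Both SKBG-1(R) lists lay far below both DMSO lists, with a log2 fold change of −2.37 (SE 0.96, −4.37 to −0.37; limma unadjusted p = 0.0222, adjusted p = 0.993). BCOR had 3 and 81 peaks in the SKBG-1(R) lists and 5 and 47 in the DMSO lists, or 15.4 and 54.6 against 74.7 and 127.8 per 10000. These did not overlap either, though the higher SKBG-1(R) list was nearer to the lower DMSO list than to its own replicate, and the log2 fold change was −1.58 (SE 0.93, −3.51 to 0.35; limma adjusted p = 0.993).

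PHF2 lay on the other side, with 3 and 42 peaks in the SKBG-1(R) lists and 0 and 2 in the DMSO lists. Per 10000 this was 15.4 and 28.3 with SKBG-1(R), against 0 and 5.44 with DMSO, with no overlap. The SKBG-1(R) lists held 45 of its 50 peaks and the other 4 lists 5, so PHF2 passed the minimum of 10 peaks for testing only through the lists where it was high. Its log2 fold change of 1.92 (SE 1.11, −0.38 to 4.23) is therefore a description, and it depends on the prior count because a DMSO list held 0 peaks. GSE1 had 10.2 and 241.1 peaks per 10000 with SKBG-1(R) and 29.9 and 231.1 with DMSO, so that the replicate 2 list stood high and the replicate 1 list low in both treatments. Its log2 fold change was −0.58 (SE 1.15), and it turned to 1.02 without scaling and to 1.45 without SKBG-1(R) replicate 1. EZH2 had 1 and 1 peaks in the SKBG-1(R) lists and 0 and 3 in the DMSO lists, at −0.10 (SE 1.13), with a different sign in some settings.

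By limma with Benjamini-Hochberg adjustment at 0.05, 0 of the 6 genes and 0 of all 479 tested genes (0%) were called for SKBG-1(R) against DMSO. EHMT1 and PHF21B were among 15 genes, 8 higher and 7 lower, whose unadjusted p was under 0.05. The 6 genes had a median log2 fold change of −1.08, beside 0.23 for all tested genes. The median of all genes was 1.10 without scaling for list length and −0.31 when each list was centred on its median gene. Both SKBG-1(R) lists lay below both DMSO lists for 3 of the 6 genes and for 9.39% of all tested genes, and above them for 1 of the 6 genes and for 10.4% of all tested genes. The gene above was PHF2, which was tested only through its SKBG-1(R) peaks and is also in the median of the 6 genes. Without scaling, EHMT1 was at −0.52, PHF21B at −0.63 and BCOR at 0.14, each SKBG-1(R) list being longer than the DMSO list of the same replicate number. With the 669 strongest peaks of each list, EHMT1 was at −1.72 and BCOR at −2.24 (limma adjusted p = 0.12 and 0.0844, over 88 genes). DMSO replicate 1 was kept whole there, while SKBG-1(R) replicate 2 was cut from 14847 peaks. PHF21B was at −1.88 and GSE1 at −1.18. Both passed the minimum of 10 peaks there only through the DMSO lists. Those lists held 4 and 7 peaks on PHF21B, and 2 and 16 on GSE1. The values of PHF21B and GSE1 in that setting are therefore descriptions. The median of the 88 genes was −0.54 in that setting, and 18 of them had an unadjusted p under 0.05.

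**Figure D4:**
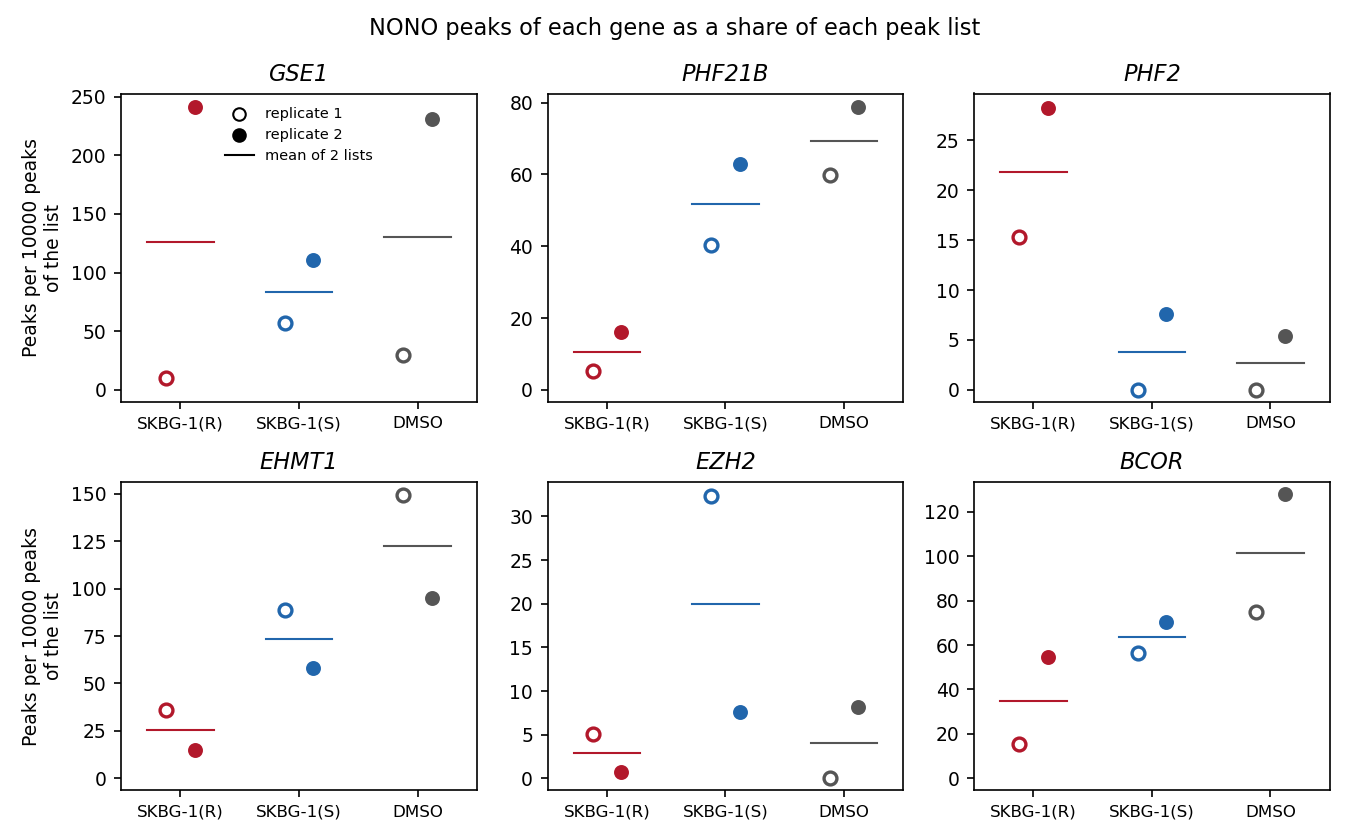
Points show peaks of each gene per 10000 peaks of the list, open for replicate 1 and filled for replicate 2, with a line at the mean of the 2 lists of SKBG-1(R), SKBG-1(S) and DMSO. For PHF21B, EHMT1 and BCOR both SKBG-1(R) lists lie below the others, for PHF2 above them, and for GSE1 the replicate 2 list is the higher in each treatment.

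SKBG-1(S) was set against the same DMSO lists, so the values of the 2 comparisons are not independent and are given side by side only. EHMT1 had 11 and 23 peaks in the SKBG-1(S) lists, or 88.9 and 58.0 per 10000, against 149.5 and 95.2 with DMSO. BCOR had 7 and 28, or 56.6 and 70.6 per 10000, against 74.7 and 127.8 with DMSO. In both genes the SKBG-1(S) lists lay below both DMSO lists, with gaps smaller than those of SKBG-1(R). Their log2 fold changes were −0.70 (SE 0.91, 95% interval −2.59 to 1.20) for EHMT1 and −0.60 (SE 0.93, −2.53 to 1.34) for BCOR.

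PHF21B had 5 and 25 peaks with SKBG-1(S), or 40.4 and 63.0 per 10000, against 59.8 and 78.8 with DMSO, and here the lists overlapped (−0.41, SE 0.96; 0.71 among peaks with a log2 enrichment of at least 4). PHF2 had 0 and 3 peaks with SKBG-1(S) and 0 and 2 with DMSO. GSE1 had 56.6 and 110.9 per 10000 with SKBG-1(S), between the DMSO values of 29.9 and 231.1, with a log2 fold change of −0.10 (SE 1.15) that turned positive without scaling and in some other settings. EZH2 had 4 and 3 peaks with SKBG-1(S), or 32.3 and 7.56 per 10000, against 0 and 8.16 with DMSO. The SKBG-1(S) lists held 7 of its 12 peaks and the other 4 lists 5, so EZH2 passed the minimum of 10 peaks only through the SKBG-1(S) lists. Its log2 fold change of 1.47 (SE 1.13) is a description and rests on a DMSO list with 0 peaks.

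For SKBG-1(S) against DMSO, limma called 0 of the 6 genes and 0 of 479 (0%), and 6 genes had an unadjusted p under 0.05, 0 of the 6 genes among them. The 6 genes had a median of −0.26, beside 0.14 for all tested genes, which was 0.21 without scaling and −0.70 with centring. The median of the 6 genes includes EZH2, which was tested only through its SKBG-1(S) peaks. Both SKBG-1(S) lists lay below both DMSO lists for 2 of the 6 genes, EHMT1 and BCOR, and for 4.8% of all tested genes. They lay above for 0 of the 6 genes and for 13.4% of all tested genes.

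SKBG-1(R) and SKBG-1(S) were compared directly at the same dose and time, as 1 pair of compounds with p-values adjusted over 479 genes. PHF21B had 5.12 and 16.2 peaks per 10000 with SKBG-1(R), against 40.4 and 63.0 with SKBG-1(S). The lists did not overlap, and the log2 difference was −1.96 (SE 0.96, 95% interval −3.96 to 0.04; limma unadjusted p = 0.0541, adjusted p = 0.995). EHMT1 had 35.8 and 14.8 with SKBG-1(R), against 88.9 and 58.0 with SKBG-1(S), a difference of −1.45 (SE 0.91, −3.34 to 0.44; limma adjusted p = 0.995). BCOR had 15.4 and 54.6 with SKBG-1(R), against 56.6 and 70.6 with SKBG-1(S). The BCOR lists lay close together at 54.6 and 56.6, and the difference was −0.98 (SE 0.93, −2.91 to 0.95), or 0.31 without scaling.

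PHF2 had 3 and 42 peaks with SKBG-1(R), against 0 and 3 with SKBG-1(S), or 15.4 and 28.3 against 0 and 7.56 per 10000 (1.78, SE 1.11, −0.52 to 4.09). EZH2 had 1 and 1 peaks with SKBG-1(R), against 4 and 3 with SKBG-1(S), or 5.12 and 0.674 against 32.3 and 7.56 per 10000 (−1.57, SE 1.13, −3.91 to 0.76). Neither gene's lists overlapped, but each gene had passed the minimum of 10 peaks only through the compound where it was high, so these differences too are descriptions. GSE1 had 10.2 and 241.1 per 10000 with SKBG-1(R), outside the 56.6 and 110.9 of SKBG-1(S) on both sides (−0.48, SE 1.15, −2.86 to 1.91; 1.55 without SKBG-1(R) replicate 1).

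Between the compounds limma called 0 of the 6 genes and 0 of 479 (0%), and 5 genes had an unadjusted p under 0.05, with 0 of the 6 genes among them. The intervals of all 6 genes included 0 and differences of more than 4-fold in at least 1 direction, so they do not show that the stereoisomers act alike. The 6 genes had a median of −1.22, beside −0.08 for all tested genes (0.75 without scaling, 0.22 with centring). Both SKBG-1(R) lists lay below both SKBG-1(S) lists for 4 of the 6 genes, PHF21B, EHMT1, EZH2 and BCOR, and for 16.3% of all tested genes. They lay above for PHF2 alone of the 6 genes and for 6.26% of all tested genes. EZH2 and PHF2 are in these counts and in the median of the 6 genes. Both passed the minimum of 10 peaks only through the compound where they were high, so the counts and the median are descriptions.

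**Figure D5:**
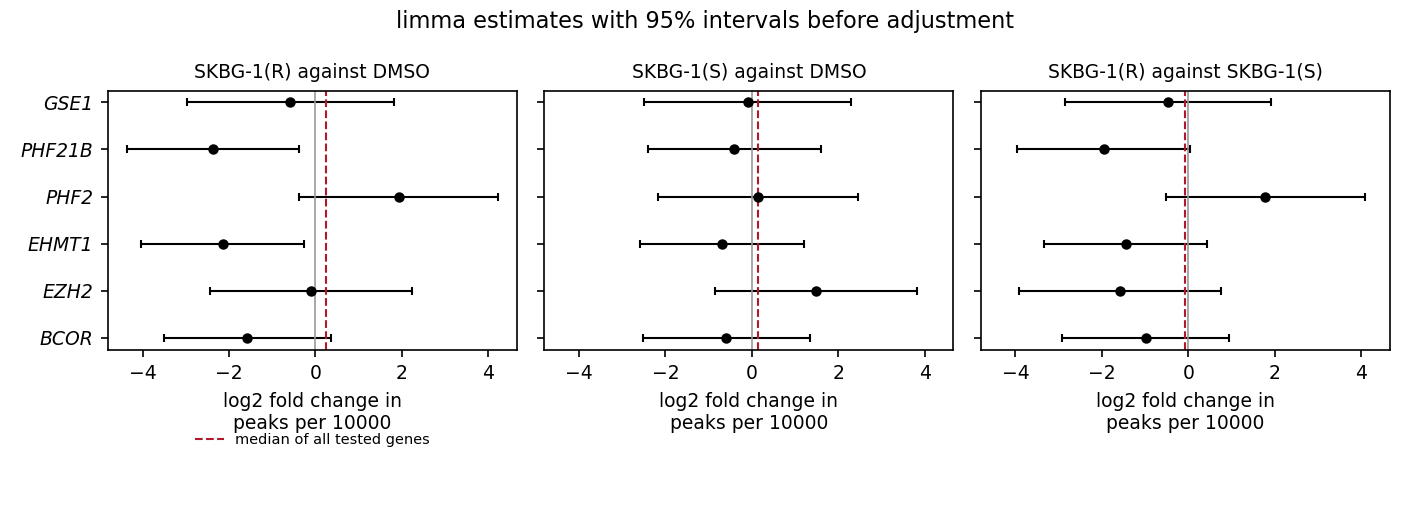
Points are limma log2 fold changes in peaks per 10000 with 95% intervals before adjustment, for SKBG-1(R) against DMSO, SKBG-1(S) against DMSO and SKBG-1(R) against SKBG-1(S), and the dashed line is the median of all 479 tested genes. The intervals of PHF21B and EHMT1 for SKBG-1(R) against DMSO leave out 0, and those of the other values include it.

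As a share of each list, peaks on the 6 genes made up 0.87% and 3.56% of the SKBG-1(R) lists, 2.75% and 3.18% of the SKBG-1(S) lists, and 3.14% and 5.46% of the DMSO lists. SKBG-1(R) replicate 1 was the lowest and DMSO replicate 2 the highest. GSE1 supplied much of this in the replicate 2 lists, with 67.8% of these peaks for SKBG-1(R), 34.9% for SKBG-1(S) and 42.3% for DMSO. The median log2 enrichment of the peaks on the 6 genes was 3.80 and 3.98 with SKBG-1(R), 3.70 and 3.68 with SKBG-1(S), and 3.69 and 3.66 with DMSO. In all other genes it was 3.77 and 3.75 with SKBG-1(R), 3.76 and 3.64 with SKBG-1(S), and 3.72 and 3.59 with DMSO. The difference was largest in SKBG-1(R) replicate 2.

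The lists of related complexes held 124 further genes, of which 40 held a peak and 13 could be tested. Limma called 0 of the 13 in each comparison, and 0 had an unadjusted p under 0.05. Their medians were −0.14 for SKBG-1(R) against DMSO, 0.46 for SKBG-1(S) against DMSO and −0.26 between the compounds. Of the KDM1A complex, the corepressors CTBP1 and CTBP2 held 197 and 120 peaks. CTBP1 had 2 and 119 peaks with SKBG-1(R), 14 and 25 with SKBG-1(S), and 2 and 35 with DMSO, so that SKBG-1(R) replicate 2 held most of them. That list also held 85 of the 120 CTBP2 peaks. KDM1A itself held 0.

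Of the JmjC demethylases, KDM4B, which acts on H3K9, held 184 peaks and KDM6B, which acts on H3K27, held 62. Set against DMSO, KDM4B had log2 fold changes of −0.14 under SKBG-1(R) and 0.87 under SKBG-1(S) and KDM6B had −0.45 under SKBG-1(R) and 0.46 under SKBG-1(S). Among partners of EHMT1 the counts were low, with 5 peaks in CDYL and 1 in CBX1, and among PRC2 genes LCOR held 7 and JARID2 3. Of Polycomb PRC1 genes, PCGF3 held 76 peaks and BCORL1, a paralog of BCOR, 20, of which 3 and 10 were with SKBG-1(R), 1 and 2 with SKBG-1(S), and 1 and 3 with DMSO. The H3K79 methyltransferase DOT1L held 74 and the H3K36 methyltransferase NSD2 46. The deacetylase HDAC4 held 64. SKBG-1(R) replicate 2 alone supplied 118 of the 184 peaks in KDM4B, 50 of 76 in PCGF3, 54 of 74 in DOT1L and 51 of 64 in HDAC4. It supplied 22 of 62 in KDM6B and 13 of 46 in NSD2.

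Over the 6 lists, some tested genes had patterns of log2 peaks per 10000 close to those of the 6 genes, given as Pearson's r without a test because the lists share their lengths and replicate numbers. For GSE1 they were C7orf50, CTBP2 and CSNK1G2 (r = 0.97 each). For PHF21B they were a locus annotated jointly to AC007240.1 and AC104794.5 (0.959), AF196970.3 (0.948) and MAML3 (0.943), and for PHF2 they were MYO18A (0.977), TRABD (0.974) and PLEKHA6 (0.948). EHMT1 was closest to AFF3 (0.978), RP11-475N22.4 (0.975) and QSER1 (0.955), EZH2 to CTNNA1 (0.959), MIR17HG (0.928) and SPIN1 (0.928), and BCOR to PTPRN2 (0.977), CLUH (0.975) and BTBD2 (0.974). In AFF3 the SKBG-1(R) lists had 1 and 0 peaks, the SKBG-1(S) lists 9 and 21, and the DMSO lists 17 and 31. Within the 6 genes the highest r was 0.922, between BCOR and PHF21B, and the lowest −0.933, between EHMT1 and PHF2.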

How the data were processed

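NONO eCLIP peaks of 22Rv1 cells were analysed in 6 lists, 2 each for SKBG-1(R), SKBG-1(S) and DMSO, with groups and replicate numbers taken from the sample titles. The authors deposited 1 list per immunoprecipitation, with a −log10 p of reads against input (minimum 3, cap 400) for each peak. The deposited log2 enrichment over input had a minimum of 3, an 8-fold enrichment. Both values were used only to describe, filter or rank peaks within a list, and no test compares them between lists. Among the tools named are cutadapt 1.9 and STAR 2.4.0i, per the submitters' processing notes, which name hg19 as well as hg38. Single-end reads went through a seCLIP pipeline, per the labels' protocols. Which program in it called peaks is not given in the sources used here. Coordinates in the deposited lists follow GRCh38, since 99.5% of the annotated transcripts had the coordinates of GENCODE 29 within 1 nt. Peaks annotated as intergenic (60, or 0.228%) were left out of gene tests.

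Peaks of a gene per 10000 peaks of the list, as log2 with a prior count of 2 scaled to list length, were tested with limma 3.58.1 (R 4.3.3), with a trended prior variance, over 479 genes with at least 10 peaks in all, all 6 lists in 1 fit, and Benjamini-Hochberg adjustment at 0.05. The test was also run on simulated lists that varied by counting error only. The replicates here varied more than that, in GSE1 for example, so the simulation does not show how the test performs on these lists. The lists, of 669 to 14847 peaks, were not weighted by length. The standard errors reflect the spread between lists of a treatment, moderated by the trended prior variance. Tables and figures were made with Python 3.11.15, pandas 2.3.3, numpy 2.4.6, scipy 1.17.1 and matplotlib 3.10.9. Alternatives changed scaling, filters, prior count, peak limits, counting of peaks, the variance model, the lists used and the replicate block.

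The 6 genes and the lists of related complexes and cell markers were chosen with earlier results of these data known. The text names the 6 genes, the 3 tested genes with the highest r to each, the 2 genes with the most peaks in each list of complexes, up to 3 regions per gene in the most lists, and any gene called in an alternative. Some items that the rule names are not reported here. Sequence windows were the stretches of RefSeq promoter windows or retained-intron transcripts of the 6 genes, outside coding exons and trimmed to peaks, with peaks of at least 3 lists. Stretches over 300 nt were split at the longest gap without a peak.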

Additional observations from a re-analysis of the deposited data

How the results depend on the processing

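Of 363 log2 fold changes of the 6 genes under other settings, 141 equal the reported value, because the setting changes only the genes tested, the error or an uninvolved list. Of the other 222, 193 kept their direction and 29 turned it, and 0 of the 363 passed the threshold. Without scaling for list length, GSE1 was at 1.02 for SKBG-1(R) against DMSO, 0.13 for SKBG-1(S) against DMSO and 0.90 between the compounds, BCOR at 0.14 for SKBG-1(R) against DMSO and 0.31 between the compounds, and PHF21B at 0.012 for SKBG-1(S) against DMSO. With a log2 enrichment of at least 4, GSE1 was at 0.83, 0.035 and 0.80 in the same order, and for SKBG-1(S) against DMSO PHF21B was at 0.71 and PHF2 at −0.74. With a −log10 p of at least 5, GSE1 was at 0.76, 0.32 and 0.44, PHF21B at 0.58 and PHF2 at −0.28 for SKBG-1(S) against DMSO. For that comparison GSE1 was also at 0.042 by summed width and 0.025 with peaks within 50 nt counted once, and PHF2 at −0.70 when centred. EZH2 was at 0.050 for SKBG-1(R) against DMSO with a prior count of 0.5. The cause was not tested.

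Leaving out 1 list at a time, for SKBG-1(R) against DMSO GSE1 ranged from −2.61 to 1.45 and EZH2 from −0.84 to 0.64. For SKBG-1(S) against DMSO GSE1 ranged from −1.49 to 1.29 and PHF2 from −0.57 to 0.84, and between the compounds GSE1 ranged from −2.51 to 1.55. EHMT1 (−2.68 to −1.62) and PHF21B (−2.92 to −1.82) kept their direction for SKBG-1(R) against DMSO. BCOR did too but was at −0.79 without SKBG-1(R) replicate 1 (−2.36 to −0.79), and between the compounds it was at −0.20 without that list (−1.77 to −0.20). A list left alone in its treatment is assumed to vary like the others.

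Genes called for SKBG-1(R) against DMSO were 1, AFF3, with at least 5 peaks, with summed width, with peaks within 50 nt counted once and with the replicate block, and 0 to 23 when 1 list was left out. Between the compounds they were 0 to 24, and for SKBG-1(S) against DMSO 0 to 0. The 23 and 24 came without SKBG-1(R) replicate 1, and 23 of each had peaks in SKBG-1(R) replicate 2 alone. None of the 6 genes was among the genes called in any of these settings. The deviations of same-numbered lists from their treatment means correlated across genes at 0.422 to 0.577, but the labels do not say what a number marks and there are 2 numbers. With the replicate block EHMT1 and PHF21B had a limma adjusted p of 0.255 for SKBG-1(R) against DMSO. Of the 479 tested genes, those with an unadjusted p under 0.05 then numbered 38 for that comparison, 23 for SKBG-1(S) against DMSO and 33 between the compounds. EHMT1, PHF21B and BCOR were among the 38 (limma unadjusted p = 0.00323, 0.00253 and 0.0235). BCOR had a limma adjusted p of 0.432 there. PHF21B and EHMT1 were among the 33 (limma unadjusted p = 0.00799 and 0.0269, adjusted p = 0.638 and 0.661). PHF2 was among the 38 and among the 33 too, but it passed the minimum of 10 peaks only through the SKBG-1(R) lists, where it was high. Its place in both is a description.

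Regions of the 6 genes in all 6 lists were 2 under the stricter overlap, and 1 with a log2 enrichment of at least 4. At that limit the replicate 1 peaks on the 6 genes that overlapped replicate 2 were 2 of 7 (28.6%) with SKBG-1(R), 2 of 12 (16.7%) with SKBG-1(S) and 2 of 4 (50%) with DMSO. Some settings left PHF2 or EZH2 under 10 peaks and gave no value for them. Motifs in windows around every peak were not run. Read depth is unknown, and EZH2, with 12 peaks, and the replicate 1 lists, with 17 to 34 peaks on the 6 genes, limit what can be seen.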
